A study of Mus musculus with 18 samples.

Results

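WNT proteins are secreted, lipid-modified ligands, and the genes described here encode those ligands and the cell surface receptors that bind them. They were taken as every gene with a probe set whose single annotated symbol is Wnt or Fzd followed by a number, or is Lrp5, Lrp6, Ror1, Ror2 or Ryk. This gave 34 of the 18193 genes on the array: 19 WNT ligands, 10 frizzleds, 2 LRP co-receptors and 3 receptors of the ROR and RYK type. The 34 genes have 69 probe sets, and each gene is represented by its brightest probe set over all 18 arrays, so a value is a log2 signal of one probe set and is compared only with the same probe set on other arrays.

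The study hybridised RNA of palatal tissue from C57BL/6J mouse embryos at embryonic day 15.5, a stage after the palatal shelves have met and while the palate muscles form. Its aim, per the series' design text, was how epithelium and muscle of the palate act on each other when the epithelium cannot receive TGF-beta. There were 6 arrays of control anterior palate and 6 of control posterior palate, both with the genotype Tgfbr2 fl/fl and no Cre. A further 6 arrays were of mutant posterior palate, K14-Cre;Tgfbr2 fl/fl, in which a keratin 14 promoter drives Cre recombinase in epithelial cells and removes the type II TGF-beta receptor there. No mutant anterior palate was analysed here, all 3 groups carry the floxed allele, and the labels also call the controls wild type. Controls and mutants came from separate litters, sex was not determined, the design text gives 5 samples a group where the labels give 6, and nothing states whether an array held 1 embryo. The p-values therefore measure only the spread between these arrays. Each array held whole tissue with epithelium, mesenchyme, muscle, nerve and bone, so fewer cells of a type and less RNA per cell cannot be told apart.

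In canonical signalling a WNT ligand bridges a frizzled and LRP5 or LRP6, which keeps beta-catenin from being degraded and lets it act with TCF and LEF factors in the nucleus. In the other branches frizzleds with ROR1, ROR2 or RYK steer cell polarity, movement and calcium signals. As background, mice without Wnt5a or Ror2 and mice without both Fzd1 and Fzd2 have cleft palate, and loss of Lrp6 or Wnt9b causes clefts of the lip and palate.

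The 3 members that changed with genotype are the frizzleds Fzd4, Fzd5 and Fzd9, and their promoters are printed here because these genes rose together. Each sequence is the 250 bases before the gene's start in RefSeq on GRCm38.p6, written 5′ to 3′ on the strand of the gene. Capitals mark each GC box (GGGCGG, either strand, so also its reverse complement CCGCCC), a motif bound by SP1-type factors. Fzd4 lies at chr7:89404116-89404365 on the plus strand, Fzd5 at chr1:64737751-64738000 on the minus strand and Fzd9 at chr5:135251048-135251297 on the minus strand.
Fzd4: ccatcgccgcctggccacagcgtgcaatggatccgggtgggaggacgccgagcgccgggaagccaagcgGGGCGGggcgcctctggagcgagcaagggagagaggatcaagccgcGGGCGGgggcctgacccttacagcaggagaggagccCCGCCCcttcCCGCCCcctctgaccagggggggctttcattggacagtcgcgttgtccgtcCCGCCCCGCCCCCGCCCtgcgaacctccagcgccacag
Fzd5: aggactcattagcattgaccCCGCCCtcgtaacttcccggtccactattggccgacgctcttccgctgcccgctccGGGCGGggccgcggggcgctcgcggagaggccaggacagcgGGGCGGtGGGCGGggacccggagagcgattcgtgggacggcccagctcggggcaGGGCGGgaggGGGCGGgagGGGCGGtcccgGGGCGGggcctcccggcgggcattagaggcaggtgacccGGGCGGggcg
Fzd9: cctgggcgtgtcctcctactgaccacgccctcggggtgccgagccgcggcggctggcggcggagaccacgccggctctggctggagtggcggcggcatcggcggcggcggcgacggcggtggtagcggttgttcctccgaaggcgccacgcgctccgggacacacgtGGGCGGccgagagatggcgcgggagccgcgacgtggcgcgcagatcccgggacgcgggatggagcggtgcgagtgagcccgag
The Fzd4 window held 7 GC boxes, of which 2 share a base, the Fzd5 window 9 and the Fzd9 window 1. All 3 windows were rich in G and C, at 72.8%, 76.4% and 76.4%, against a median of 52.4% over all promoters. None held the TCF and LEF letters searched (CTTTG and 2 more bases that are each A or T, both strands) or the SMAD letters CAGAC on either strand. Of 32851 promoters of the same length 14.8% held the TCF and LEF letters, 42.2% the SMAD letters and 32.7% a GC box. Promoters were at hand for 24 of the 34 members, with 27 windows because some genes have several, and 11.1%, 37.0% and 77.8% of these windows held the same 3 motifs.

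Several arrays stood apart before any test. Mean signal over 23 basal and simple epithelial genes was 8.68 on mutant array 1 against 10.27 to 11.11 on the other mutant arrays, 10.34 to 10.81 in control posterior and 10.64 to 11.33 in control anterior palate. Mean signal over 26 skeletal muscle genes was 5.33 to 7.18 in anterior, 8.59 to 9.83 in control posterior and 8.58 to 11.51 in mutant posterior palate. Signal of the defining epithelial gene Krt14 was 10.77 to 13.33 over all arrays, and that of the muscle regulator Myog was 9.14 to 11.58 on posterior and 4.95 to 7.64 on anterior arrays. Cdh1, another epithelial gene, read 8.25 to 11.74 in mutant posterior, 11.52 to 12.04 in control posterior and 11.74 to 12.22 in control anterior palate. Labelling spike-in controls, RNAs added before labelling, read 9.44 to 9.70 on control arrays 1 to 3, 10.60 to 11.40 on control arrays 4 to 6, and 7.23 to 8.91 on the mutant arrays, so handling and genotype cannot be told apart. Hybridisation spike-in controls, added after labelling, read 11.38 to 11.91 on mutant arrays 1 to 3, 10.67 to 10.78 on mutant arrays 4 to 6, 10.53 to 10.63 on control arrays 1 to 3 and 10.88 to 11.13 on control arrays 4 to 6. The median signal of an array was 5.87 to 5.90 on mutant arrays 1 to 3 and 5.739 to 5.797 on the other 15. Mean signal over 12 nerve genes was 6.37 and 6.26 on mutant arrays 5 and 6, 7.12 on array 1 and 8.67 to 9.44 on arrays 2 to 4, against 7.60 to 8.11 in control posterior palate. The brightest Tgfbr2 probe set read 10.63 to 11.39 in mutant and 10.25 to 10.73 in control posterior palate. Its place relative to the deleted part of the gene was not given in the sources used here, so it does not check the labels.

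The first comparison asked what loss of the receptor in the epithelium did to the posterior palate. Of the 34 members 3 changed at an adjusted p under 0.05 in a limma fit of all 18 arrays, and all 3 rose: Fzd5, Fzd4 and Fzd9. That is 8.82% of the members, against calls for 13.5% of all genes (7.73% higher in the mutant). None of the 19 ligands, neither LRP co-receptor and none of the 3 ROR and RYK genes was called. The median difference was 0.0971 over the members and 0.0409 over all genes, both on the log2 scale.

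Fzd5, a frizzled that works in canonical signalling and is best known from the eye and gut, gave the smallest p of the members in that fit. Its signal was 6.78 at the lowest, 6.92 at the median and 7.02 at the highest in control posterior palate, and 7.01, 7.63 and 8.30 in the mutant. Only mutant array 2, at 7.01, lay within the control range. The mutant mean was 0.74 higher on the log2 scale (SE 0.16, 95% interval 0.39 to 1.08), a 1.66-fold rise with an adjusted p of 0.00696 by limma. The call held without any single array, with an adjusted p of 0.00114 to 0.0191. It was lost when 4 sets of arrays were a random block (adjusted p = 0.0841) or when only control arrays 1 to 3 (0.221) or 4 to 6 (0.0994) were used.

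Fzd4 encodes the receptor for Norrin as well as for WNTs and is best known from blood vessel growth in the retina. It read 7.05, 7.39 and 7.59 in control posterior and 7.54, 7.73 and 8.14 in mutant posterior palate as lowest, median and highest. Only mutant array 2, at 7.54, lay below the highest control array. The rise was 0.45 on the log2 scale (SE 0.14, interval 0.16 to 0.74), or 1.36-fold, with an adjusted p of 0.0398 by limma. Without control posterior array 2, 4, 5 or 6, or mutant array 1, 3 or 4, the adjusted p was 0.0535 to 0.1004 and the gene was not called.

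Fzd9, a frizzled studied in brain and bone, showed no overlap between the genotypes. Control posterior arrays gave 6.86, 7.37 and 7.53 and mutant arrays 7.60, 7.79 and 8.32. Every mutant array was above every control posterior array, and mutant array 1 was the highest of all 18. The mean was 0.57 higher (SE 0.18, interval 0.20 to 0.94), a 1.48-fold rise with an adjusted p of 0.0408 by limma. This call was lost without control anterior array 1 or 3, control posterior array 2, 3, 4, 5 or 6, or mutant array 1, 2 or 3, with an adjusted p of 0.051 to 0.103. With each array centred on its median the differences were 0.39 for Fzd4 (adjusted p = 0.0697) and 0.51 for Fzd9 (0.0601), and only Fzd5 stayed called (0.0135).

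**Figure D1:**
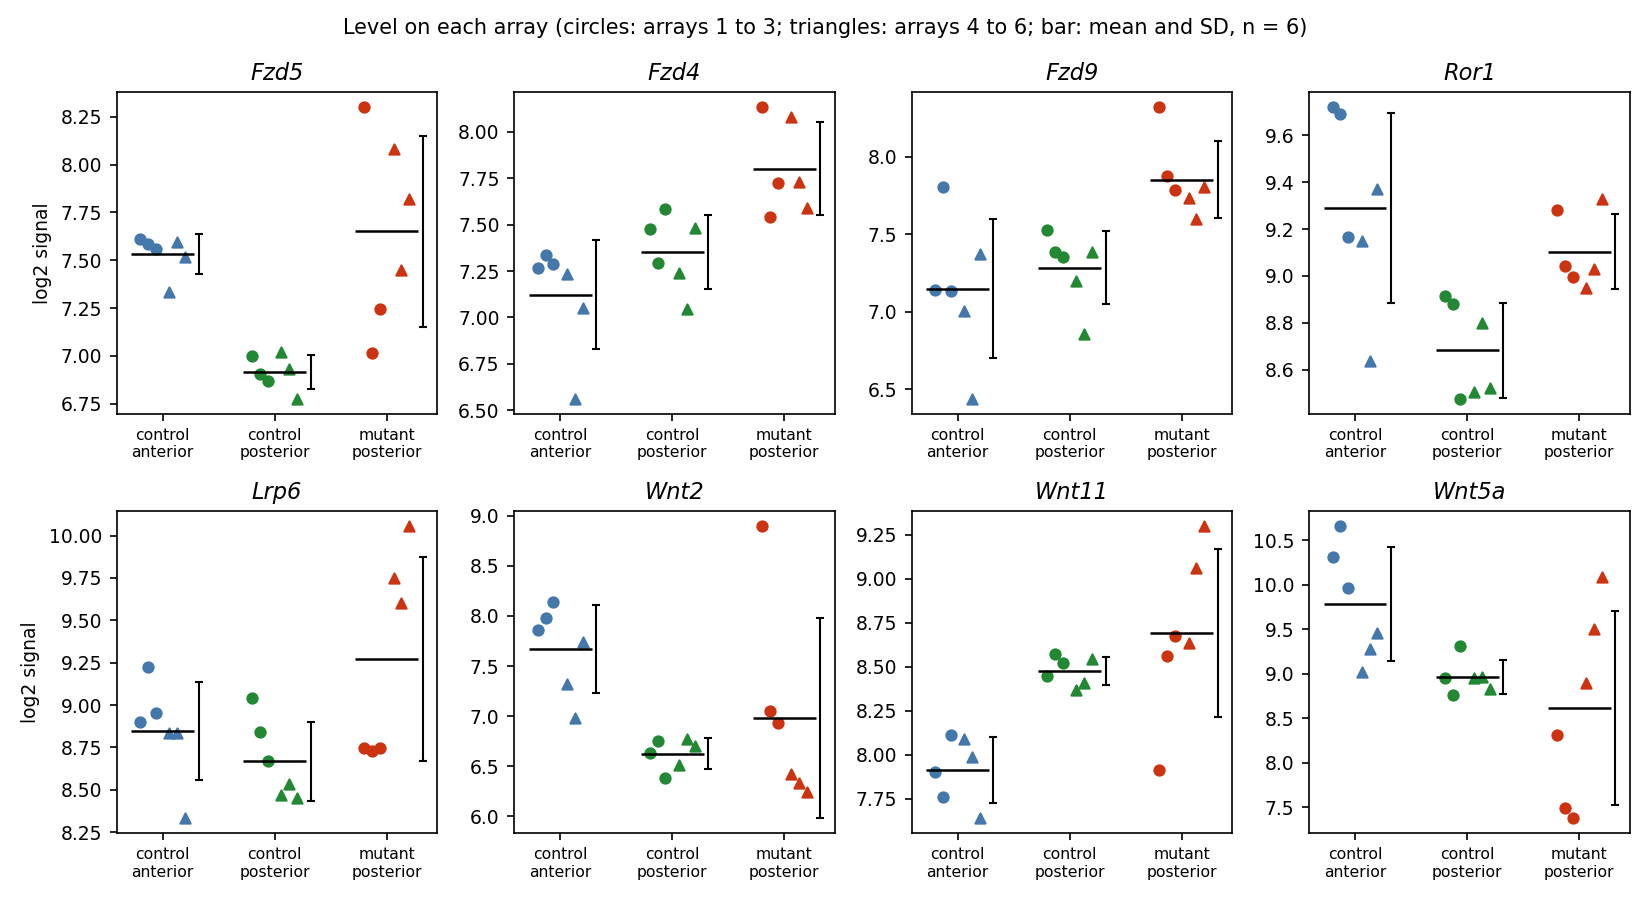
Log2 signal (vertical axis) on each array for 8 genes in the 3 groups on the horizontal axis; points are arrays, circles being arrays 1 to 3 and triangles 4 to 6, with the mean as a line and the SD as a bar (n = 6 a group). Fzd9 and Ror1 separate the mutant from the control posterior arrays, Fzd5 is lowest in control posterior palate, and the mutant arrays of Lrp6 and Wnt5a split into 1 to 3 and 4 to 6.

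The other 7 frizzleds were not called. Fzd6, which acts in planar polarity of skin and hair, had the largest difference among them, at -0.68 (SE 0.27, adjusted p = 0.102 by limma). Its mutant arrays ran from 7.42 to 9.58 with a median of 9.08, and control posterior arrays from 9.36 to 9.67. Mutant arrays 1 and 3 were the low ones, at 7.42 and 8.21. The epithelial gene mean was 8.68 on array 1 and 10.71 on array 3, against 10.34 to 10.81 in control posterior palate. Of its genes, Krt14 read 10.77 and 12.53 on these arrays (control posterior 11.89 to 12.58). Cdh1 read 8.25 and 10.42, against 11.19 to 11.74 on the other mutant arrays and 11.52 to 12.04 in control posterior palate. The part of epithelial content in the Fzd6 values was not tested. Fzd10 differed by 0.23 (adjusted p = 0.255), Fzd7 by 0.19 (0.185), Fzd8 by 0.11 (0.607), Fzd2 by 0.11 (0.635), Fzd3 by 0.08 (0.728) and Fzd1 by -0.06 (0.813).

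Among the co-receptors, Ror1 and Lrp6 came closest to the threshold. Ror1, a kinase-like receptor for WNT5A, read 8.48, 8.66 and 8.91 in control posterior and 8.95, 9.04 and 9.33 in mutant posterior palate. The groups did not overlap, yet the difference of 0.42 (SE 0.15, 1.34-fold) had an adjusted p of 0.0741 in the limma fit of 18 arrays and 0.0286 in a fit of the 12 posterior arrays alone. Ror1 and Fzd9 were the only members whose groups did not overlap, 5.88% of the members against 6.55% of all genes. In the fit of 12 arrays 4 members were called, Fzd4, Fzd5, Fzd9 and Ror1, where 8.64% of all genes were called.

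Lrp6, the main LRP co-receptor of canonical signalling, was split within the mutant on its brightest probe set only. On the dimmer one (1451022_at) mutant arrays 1 to 3 read 6.48 to 7.53 and mutant arrays 4 to 6 read 6.72 to 7.12. On the brightest, mutant arrays 1 to 3 read 8.73 to 8.75, inside the control posterior range of 8.45 to 9.04. Mutant arrays 4 to 6 read 9.60 to 10.06 there, above every control array. The difference over all 6 mutant arrays was 0.60 (SE 0.22, adjusted p = 0.0763 by limma). With mutant arrays 4 to 6 only it was 1.13 (adjusted p = 0.000654), and with mutant arrays 1 to 3 only 0.07 (0.769). Leaving out mutant array 1, 2 or 3 brought Lrp6 past the threshold, at an adjusted p of 0.0379 to 0.046. Its relative Lrp5 differed by -0.13 (0.641), Ryk, an atypical kinase receptor, by 0.15 (0.176) and Ror2, the main WNT5A receptor in the palate, by -0.12 (0.733).

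**Figure D2:**
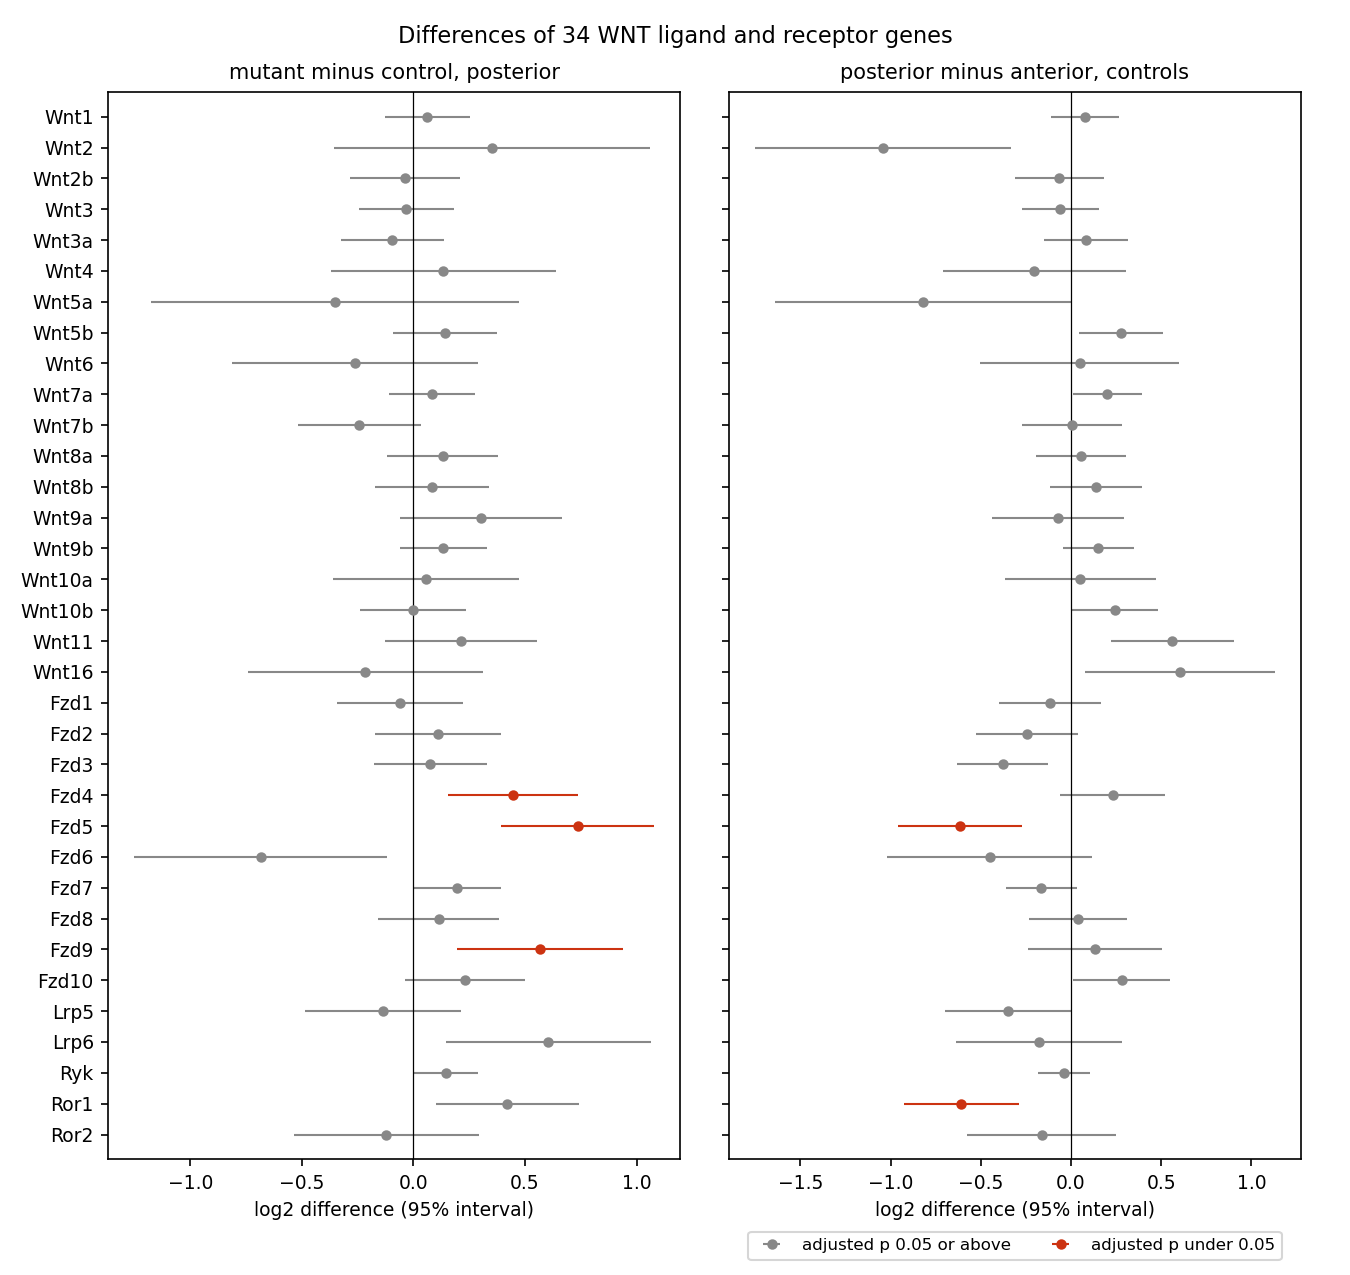
Log2 difference with its 95% interval (horizontal axis) for each of the 34 genes (vertical axis), mutant minus control posterior palate on the left and control posterior minus control anterior palate on the right. Red marks an adjusted p under 0.05: Fzd4, Fzd5 and Fzd9 above 0 on the left, and Fzd5 and Ror1 below 0 on the right.

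For the ligands no call was made by limma, and none reached even an unadjusted p under 0.05, where 28% of all genes did. Their differences ran from -0.35 for Wnt5a to 0.35 for Wnt2. The precision differed from gene to gene, and this sets what could be seen. Of the 31 members not called, 18 had a 95% interval wholly within 0.5 of 0 on the log2 scale, and 13 reached beyond it. The widest was that of Wnt5a, from -1.17 to 0.47. In simulated data of the same size 62% of genes changed by 0.5 and 88% of those changed by 1 were recovered. The simulation gave every group the same spread, made the arrays independent and drew the changed genes from all genes. Members spread more within the mutant (median SD 0.327, against 0.233 over all genes), so these rates are not those of the members.

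Wnt5a is the chief ligand of the polarity branch and drives outgrowth of the palatal shelves. Its control posterior arrays read 8.76, 8.95 and 9.31, and its mutant arrays 7.38, 8.60 and 10.09. On this brightest probe set mutant arrays 1 to 3 lay at 7.38 to 8.31, below every control posterior array. Mutant arrays 4 to 6 lay at 8.89 to 10.09, inside or above the control range. The difference was -0.35 over all 6 mutant arrays (adjusted p = 0.6 by limma), -1.24 with arrays 1 to 3 only (0.00819) and 0.54 with arrays 4 to 6 only (0.274). Other Wnt5a probe sets differed by 0.15 (1448818_at), -0.01 (1437673_at) and 0.21 (1456976_at, dim), none called. Mutant array 1 read 7.55 on 1448818_at (control posterior 6.86 to 7.65) and 7.16 on 1437673_at (6.94 to 7.54), inside the control range. The mean of all Wnt5a probe sets differed by -0.00062.

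Wnt2, a ligand of lung and placenta growth, depended on a single array. It read 6.39, 6.67 and 6.77 in control posterior palate and 6.24, 6.68 and 8.90 in the mutant, where array 1 was the highest of all 18 and the next highest mutant array read 7.05. The difference of 0.35 (adjusted p = 0.534 by limma) became -0.032 without mutant array 1 and 1.00 with mutant arrays 1 to 3 only (adjusted p = 0.044). Wnt9a, known from joint formation, read 6.59, 6.88 and 7.002 in control posterior and 6.55, 7.16 and 7.48 in mutant posterior palate, a difference of 0.30 with an adjusted p of 0.27. Wnt11, a ligand of cell movement, differed by 0.21 (0.424) and Wnt16, a ligand of bone, by -0.22 (0.617). The other 14 ligands differed by -0.26 (Wnt6) to 0.14 (Wnt5b), with adjusted p from 0.242 (Wnt7b) to 0.99 (Wnt10b).

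Of 9 ligands usually described in epithelium, 5 had their extremes on the same mutant arrays. Wnt4, Wnt6, Wnt7b, Wnt10a and Wnt10b all had their lowest signal of the 18 on mutant array 1 and their highest on mutant array 2. Wnt4 read 9.02 and 11.12 there against 9.71 to 10.13 in control posterior palate, Wnt6 read 5.94 and 8.34 against 7.33 to 7.67, and Wnt10a read 7.48 and 8.91 against 7.63 to 8.56. The other 4 did not share that order: within the mutant Wnt3 was highest on array 1 (3.48), Wnt3a was lowest on array 4 (5.64), Wnt7a read 7.34 on array 1 and 7.01 on array 2, and Wnt9b was highest on array 5 (5.24). Over all 9 the mean signal was 6.50 on mutant array 1, 7.32 on array 2, 7.08, 6.67, 6.95 and 6.86 on arrays 3 to 6, and 6.81 to 7.03 in control posterior palate. The mean over the 23 epithelial genes on mutant arrays 1 to 6 was 8.68, 11.11, 10.71, 10.27, 10.74 and 10.40. Both means were lowest on array 1 and highest on array 2. The part of epithelial content in the levels of these ligands was not tested.

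**Figure D3:**
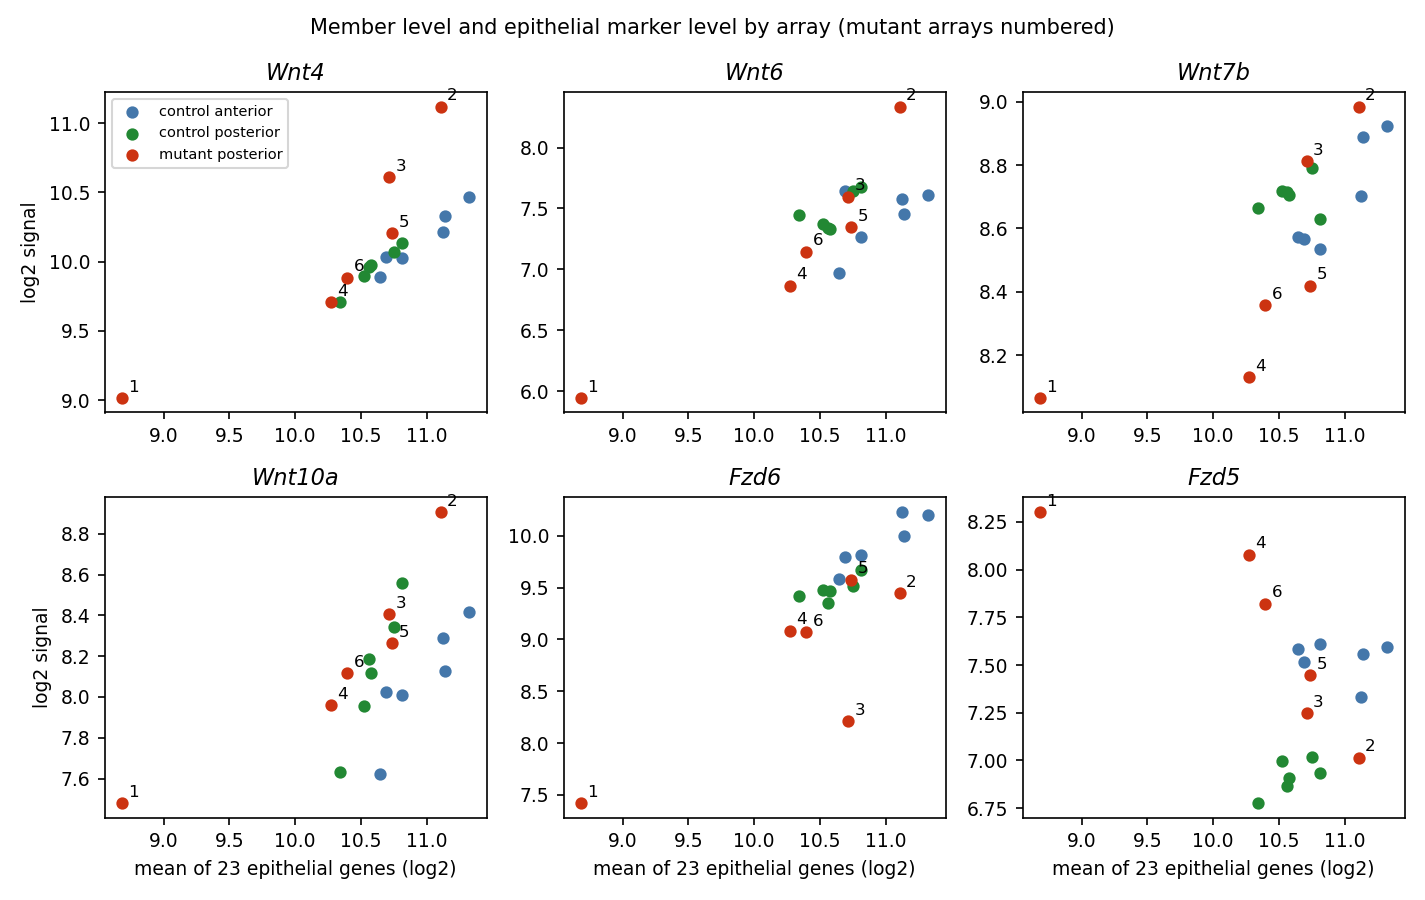
Log2 signal of 6 genes (vertical axes) against the mean log2 signal of 23 basal and simple epithelial genes on the same array (horizontal axes); each point is an array, coloured by group, and mutant arrays are numbered. Wnt4, Wnt6, Wnt7b, Wnt10a and Fzd6 are lowest on mutant array 1, where the epithelial mean is 8.68, and Fzd5 is highest there.

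The called frizzleds did not follow that order. Fzd5 read 8.30 on mutant array 1 and 7.01 on array 2, Fzd4 read 8.14 and 7.54, and Fzd9 read 8.32 and 7.88. All 3 had their highest signal of the 18 arrays on mutant array 1, which also had the highest mean over the muscle genes (11.51). Without that array Fzd5 stayed called (adjusted p = 0.0103 by limma), while Fzd4 stood at 0.085 and Fzd9 at 0.0877. In mutant against control posterior palate limma called 13.5% of all genes. Called higher were 4 of 26 muscle genes and 13 of 24 genes of stratified epithelium. So were 4 of 13 bone and cartilage genes and 2 of 12 nerve genes. Of 13 blood genes 1 was called higher and 4 lower. No call was made among 23 basal and simple epithelial genes or 14 endothelial genes. Called or not, 4 of the 23 basal and simple genes differed by more than 0 (median -0.288), as did 12 of the 14 endothelial genes (0.225). The same held for 25 of the 26 muscle genes (0.929) and 58.3% of all genes. Mean signal over the stratified genes was 6.76 to 7.39 in control posterior and 7.33 to 9.003 in mutant posterior palate, and over the bone and cartilage genes 7.82 to 8.44 and 8.22 to 10.06. Their part in the frizzled results was not tested.

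Spread within the mutant was larger than within the controls. The median SD of the members was 0.189 in anterior, 0.161 in control posterior and 0.327 in mutant posterior palate, and over all genes 0.152, 0.128 and 0.233. Mutant array 1 held the highest or lowest signal of the 18 for 15 members (44.1%), where it did so for 37.5% of all genes. Mutant arrays 1 to 3 and 4 to 6 did not overlap for 10 members, among them Lrp6, Wnt5a, Wnt2, Wnt9a, Fzd7 and Ror2. That is 29.4% of the members, near the 31.1% of all genes. With mutant arrays 1 to 3 only, the limma fit called Wnt2, Fzd5, Fzd9 and Ryk higher and Wnt5a and Fzd6 lower, 17.6% of the members against 27.4% of all genes. With mutant arrays 4 to 6 only, it called Wnt11, Fzd5, Fzd7 and Lrp6 higher and Wnt7b lower, 14.7% against 18.2%, so that Fzd5 was the only member called with both sets. The hybridisation spike-ins and the array medians given above separate the same sets of mutant arrays, and their part in these differences was not tested.

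**Figure D4:**
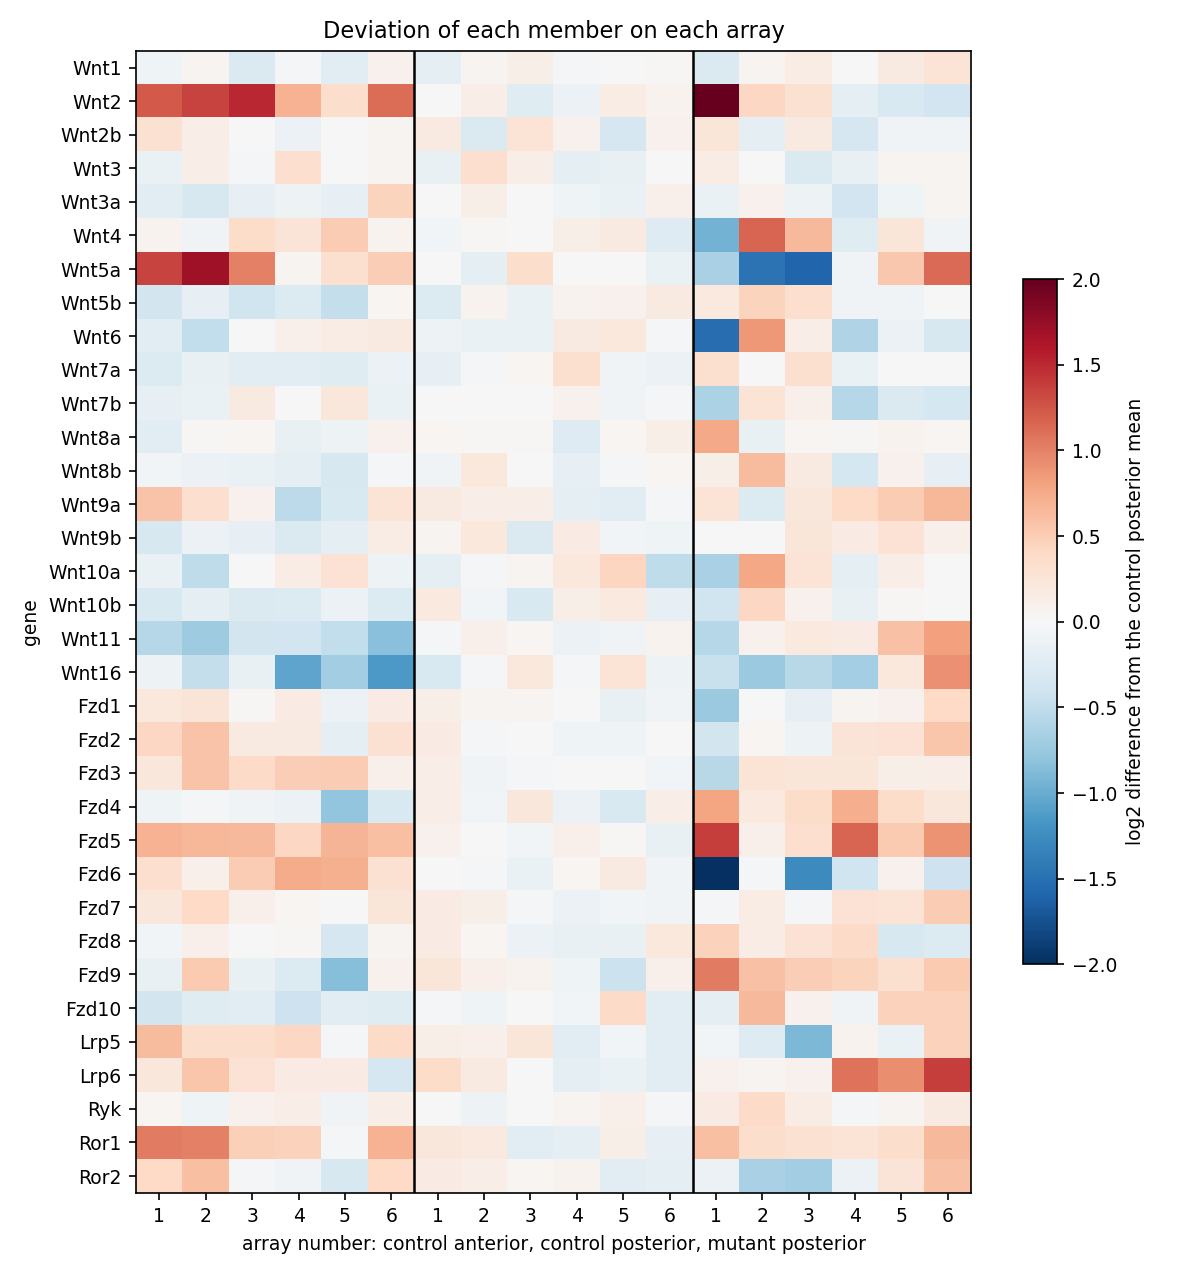
Log2 difference of each array from the control posterior mean (colour, scale ending at 2 in either direction) for the 34 genes (rows) on the 18 arrays (columns, 6 a group). The mutant columns vary most, Fzd5 is red in every anterior column, and Lrp6 is reddest in mutant arrays 4 to 6.

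Probe sets of the same gene did not always behave alike. With every probe set tested by itself, 8 of the 69 member probe sets rose in the mutant and none fell, where 13.4% of all probe sets were called. For Fzd4 all 3 were among them: the brightest (1434756_at, 0.45), the next (1419301_at, 0.87, adjusted p = 0.00126 by limma) and a dim one (1449416_at, 0.25). On the second Fzd4 probe set the mutant arrays read 7.37 to 7.89 and the control posterior arrays 6.28 to 7.19, with no overlap. Fzd5 was called on its brightest probe set only, since the dimmer one (1422937_at) differed by 0.13 with an adjusted p of 0.454. Fzd9 has a single probe set.

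Further calls came from probe sets that were not the brightest. The second Fzd2 probe set (1418532_at) read 9.88 to 10.19 in control posterior and 10.30 to 10.76 in mutant posterior palate, a rise of 0.42 with an adjusted p of 0.0213. The brightest Fzd2 probe set differed by 0.11 and the third (1418533_s_at) by 0.34 (adjusted p = 0.0629 by limma), neither called. The second Lrp6 probe set (1451022_at) rose by 0.60 (adjusted p = 0.0376) and, unlike the brightest, did not separate mutant arrays 1 to 3 from 4 to 6. The third Ror1 probe set (1429312_s_at) rose by 0.55 (0.0262). Of the 22 members with 2 or more probe sets, all probe sets had the same sign in 11, and no member had calls in opposite directions.

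**Figure D5:**
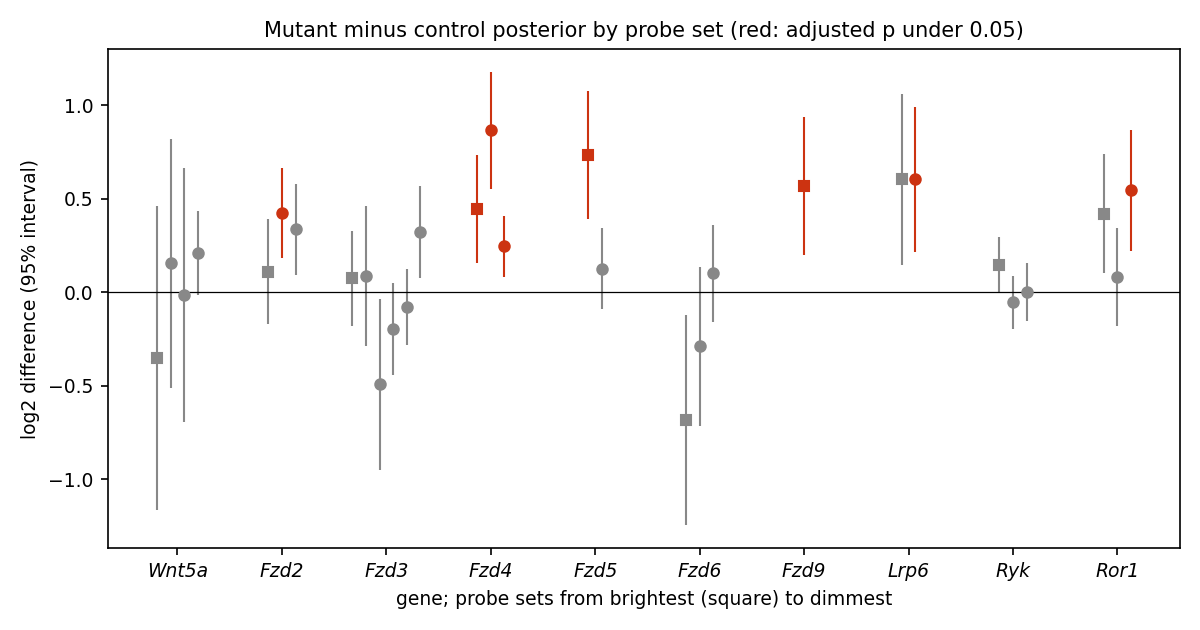
Log2 difference of mutant minus control posterior palate with its 95% interval (vertical axis) for each probe set of 10 genes (horizontal axis), the brightest as a square and the others as circles in order of brightness. Red marks an adjusted p under 0.05 over all probe sets: 3 probe sets of Fzd4 and 1 each of Fzd2, Fzd5, Fzd9, Lrp6 and Ror1.

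The second comparison asked how posterior differed from anterior palate in the controls. Of the 34 members 2 were called in the limma fit of 18 arrays, Ror1 and Fzd5, both lower in the posterior palate. That is 5.88% of the members, against calls for 3.82% of all genes (2.12% lower in the posterior palate). The median difference was -0.017 over the members and -0.0175 over all genes. The fit of 18 arrays did not pair the control arrays. With the replicate number as a block over all 18 arrays, mutant arrays included, only Ror1 was called. Same-numbered control arrays deviated together (correlation 0.111 to 0.43), while mutant and control posterior arrays did so less (-0.222 to 0.157). The same block in a fit of the 12 control arrays alone called 11 members (32.4%, against 17.3% of all genes). This comparison and the one between genotypes share the control posterior arrays, so that a low value there lowers the one and raises the other.

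Ror1 read 8.64, 9.27 and 9.72 in anterior and 8.48, 8.66 and 8.91 in posterior control palate. Anterior array 5 was the low one at 8.64, inside the posterior range, and the other anterior arrays were above every posterior array. The difference was -0.61 (SE 0.15, interval -0.93 to -0.29), 1.52-fold lower, with an adjusted p of 0.031 by limma. The call was lost without anterior array 1, 2 or 6 or posterior array 3, 4 or 6, at an adjusted p of 0.0512 to 0.083. It was also lost with the mean of the 3 Ror1 probe sets, which gave -0.22 (adjusted p = 0.273).

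Fzd5 read 7.34, 7.57 and 7.61 in anterior and 6.78, 6.92 and 7.02 in posterior control palate, with no overlap. The difference was -0.62 (SE 0.16, interval -0.96 to -0.27), 1.53-fold lower, with an adjusted p of 0.0413 by limma and 0.0515 with the replicate block. Leaving out any 1 of the 12 control arrays ended the call, at an adjusted p of 0.0532 to 0.101. In the fit of the 12 control arrays, which leaves out the wider mutant spread, the adjusted p was 3.4e-05. On the dimmer Fzd5 probe set the difference was 0.03 (0.935).

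That fit of the 12 control arrays called 9 members, or 26.5%, where it called 11.8% of all genes. These were Wnt2, Wnt5a, Fzd3, Fzd5, Fzd6, Lrp5 and Ror1, lower in the posterior palate, and Wnt11 and Wnt16, higher there. With the replicate block added, a setting chosen after seeing the data, 11 were called (32.4%, against 17.3% of all genes). Groups did not overlap for 4 members (11.8%, against 6.32% of all genes): Wnt2 and Fzd5 lower, Wnt11 and Fzd10 higher.

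Wnt2 had the largest difference between regions. It read 6.98, 7.80 and 8.14 in anterior and 6.39, 6.67 and 6.77 in posterior control palate, so that every anterior array was higher. The difference of -1.04 (SE 0.34, 2.06-fold lower) had an adjusted p of 0.094 by limma in 18 arrays, 0.00196 without mutant array 1 and 0.00175 in the 12 control arrays. Without mutant array 1 the fit of all remaining arrays called Wnt2, Wnt11, Fzd3, Fzd5 and Ror1, 14.7% of the members against 6.67% of all genes.

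Wnt11 ran the other way. Its anterior arrays read 7.64, 7.95 and 8.11 and its posterior control arrays 8.37, 8.48 and 8.57, without overlap. The difference was 0.56 (SE 0.16, 1.48-fold higher) with an adjusted p of 0.0638 in 18 arrays and 0.000782 in 12. The muscle genes also separated the regions, with 24 of 26 higher in the posterior palate and none lower, and mean signals of 5.33 to 7.18 and 8.59 to 9.83. Of the epithelial genes 2 of 23 basal and simple ones fell in 18 arrays, where 3.82% of all genes were called. In the 12 control arrays 10 of these 23 fell (43.5%, against calls for 11.8% of all genes). Their mean signals were 10.64 to 11.33 in anterior and 10.34 to 10.81 in posterior control palate. Of 24 genes of stratified epithelium 1 fell and 1 rose in 18 arrays, and 6 fell and 1 rose in 12 (median difference -0.551). The part of either tissue in the member values was not tested.

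Wnt5a read 9.02, 9.71 and 10.66 in anterior against 8.76, 8.95 and 9.31 in posterior control palate, with overlap. Anterior arrays 1 to 3 were the high ones, at 9.96 to 10.66. The difference was -0.82 (SE 0.39, adjusted p = 0.254), and the next 2 Wnt5a probe sets gave -0.94 and -1.02, neither called. Fzd3, a polarity receptor of axon tracts, differed by -0.38 (adjusted p = 0.0883) and read 9.13, 9.46 and 9.59 against 8.96, 9.02 and 9.17. Wnt16 differed by 0.60 (0.187), Fzd6 by -0.45 (0.37), Lrp5 by -0.35 (0.249), Fzd10 by 0.28 (0.236) and Wnt5b, a close relative of Wnt5a, by 0.28 (0.172).

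The remaining members differed by less than these between regions, in the range of -0.24 for Fzd2 to 0.24 for Wnt10b. Of the 32 members not called, 16 had a 95% interval within 0.5 of 0 and 16 reached beyond it, the widest again that of Wnt5a (-1.64 to 0.00). With every probe set tested by itself only the brightest Ror1 probe set was called among the members, where 2.49% of all probe sets were. Fzd5 then stood at an adjusted p of 0.0511.

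Signal strength limits what some ligands can show. Wnt1, Wnt2b, Wnt3, Wnt8a, Wnt8b and Wnt9b lay below the median probe set of the array on all 18 arrays. Wnt3a and Lrp5 lay on both sides of it, and the other 26 members were above it on every array. Group means of Wnt1, a ligand of the midbrain and neural crest, were 3.87, 3.95 and 4.01 in anterior, control posterior and mutant posterior palate, and those of Wnt9b, a ligand of facial ectoderm, 4.80, 4.95 and 5.09. The files used here hold no detection calls, so a low signal was not read as absence.

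Genes on either side of the receptors were taken from 6 lists. Among 16 genes of WNT secretion and handling, Gpc3 (0.49) and Gpc4 (0.30), glypicans that hold WNTs at the cell surface, rose in the mutant, and the cargo receptor Tmed5 (-0.29) fell. These 3 are 18.8% of the list, against calls for 13.5% of all genes. In the fit of the posterior arrays alone 1 of the 16 was called (6.25%, against 8.64% of all genes). Gpc4 was also lower in posterior than in anterior control palate (-0.40, adjusted p = 0.015 by limma). Among 16 genes of R-spondin signalling and receptor partners, Rspo2 (0.64) and Ptk7 (0.30) rose and Tspan12 (-0.64) and Rspo4 (-0.35) fell. These 4 are 25% of the list, against calls for 13.5% of all genes. In the fit of the posterior arrays alone 3 of the 16 were called (18.8%, against 8.64% of all genes). Tspan12, which helps FZD4 respond to Norrin, read 8.71, 8.78 and 9.23 in control posterior and 7.78, 8.32 and 8.54 in mutant posterior palate. Every mutant array of Tspan12 was below every control posterior array (adjusted p = 0.00443 by limma), while Fzd4 itself rose. No gene of that list was called between regions by limma, with 4 of 16 at an unadjusted p under 0.05 (19.8% of all genes were), the smallest being Ndp, the gene of Norrin (-0.79, adjusted p = 0.0856).

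Of 18 secreted antagonists 3 rose in the mutant (16.7%, against calls for 13.5% of all genes) and none fell: Sost (1.26), Dkk4 (2.49) and Dkk1 (1.27), the last of which blocks LRP5 and LRP6. Dkk1 read 7.51, 7.70 and 7.94 in control posterior and 8.27, 8.81 and 10.04 in mutant posterior palate, without overlap. Dkk4 was more uneven, at 4.44, 4.74 and 5.64 against 4.34, 7.74 and 8.99. Between regions Sostdc1, another LRP antagonist, fell from 10.28, 11.03 and 11.26 to 9.79, 9.93 and 10.10 (-0.97, adjusted p = 0.00493 by limma).

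Of 32 genes of beta-catenin signal transduction 3 rose with genotype and none fell (9.38%, against calls for 13.5% of all genes). These were the kinases Csnk1d (0.25) and Gsk3b (0.32) and Gpc3, which is on both lists. Of the same 32, 4 fell from anterior to posterior (12.5%, against calls for 3.82% of all genes). These were Pygo1 (-0.36), Tle3 (-0.35), Tcf7l1 (-0.33) and Csnk1d (-0.24). Called or not, 3 of the 32 were higher in the posterior palate (9.38%, against 45.9% of all genes). Of 32 genes of the polarity and calcium branch 3 rose in the mutant, Nfatc2 (0.43), Rac1 (0.28) and Prickle2 (0.57), and Nlk (-0.50) fell. Together these are 12.5% of the list, against 13.5% of all genes. In that branch 4 fell from anterior to posterior (12.5%, against calls for 3.82% of all genes): Ankrd6 (-1.04, adjusted p = 2.98e-05 by limma), Nfatc1 (-0.65), Ppp3ca (-0.41) and Jun (-0.40). Ankrd6, which encodes the polarity scaffold Diversin, read 9.15, 9.17 and 9.30 in anterior and 7.997, 8.15 and 8.32 in posterior control palate.

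Of 17 genes often used as readouts of beta-catenin activity 2 rose in the mutant and none fell (11.8%, against calls for 13.5% of all genes). They were Nkd1 (0.59) and Dkk1. Nkd1, a feedback inhibitor, read 6.98, 7.11 and 7.34 in control posterior and in mutant posterior palate 7.58 at the lowest and 7.67 at the median, without overlap (adjusted p = 0.00936 by limma). Between regions Sp8, a transcription factor of facial and limb outgrowth, fell from 5.14, 5.87 and 8.18 to 3.60, 3.74 and 5.87 (-2.09, adjusted p = 0.0139). The groups of Sp8 overlapped. Shares of called genes in the 6 lists ran from 9.38% to 25.0% with genotype, against 13.5% of all genes, and from 0% to 12.5% between regions, against 3.82%.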

How the data were processed

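RNA was extracted with a Qiagen RNeasy Plus kit, per the labels' protocols, and hybridised to a 1-colour Affymetrix mouse array. The authors deposited RMA values, per the submitters' processing notes, and these log2 values were used without further normalization; the RMA version was not given in the sources used here. Of 45101 probe sets 64 are controls, and 34945 that are not controls have 1 symbol in the platform annotation. Counted with the controls, 932 have several symbols and 9211 none. The brightest probe set per gene over all arrays gave 18193 genes, of which 18032 matched a current gene record and none changed symbol.

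Groups came from the sample titles. One limma fit of all 3 groups (limma 3.58.1, R 4.3.3, statmod 1.5.0, 15 residual degrees of freedom) gave both contrasts, with Benjamini-Hochberg adjustment over 18193 genes and calls at an adjusted p under 0.05. Figures were drawn with matplotlib 3.10.9. Members and lists were chosen with earlier results of these data known, and so were the sets of arrays 1 to 3 and 4 to 6. All members could be named; from each pathway list up to 4 called genes with the smallest p were named for each contrast, or the 1 with the smallest p. List genes without a probe set of their own, such as Tcf7 and Kremen2, were not analysed here.

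Same-numbered arrays, numbered in the titles, were checked for pairing by the correlation of their deviations from the group means. It was 0.111 to 0.43 for the 6 pairs of anterior and posterior controls and -0.222 to 0.157 for mutant and control. The reported fit used no pairing in either comparison, and the replicate number entered as a block only in alternatives. Alternatives covered the probe set rule, scaling, dim genes, variance model, array weights, the samples in the fit, blocks and each array left out. The script was tested on simulated data with 50 genes changed by each of 4 sizes: 62% were recovered at a log2 size of 0.5 and 88% at 1, and 6.45% of 186 calls were false. The simulated arrays were independent, with the same spread in every group, unlike the measured ones. The number of arrays limits the precision. Array medians of the deposited values were higher on mutant arrays 1 to 3 than on the others, so centring was among the scaling alternatives.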

Additional observations from a re-analysis of the deposited data

Results flagged for a closer look

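Of 102 groups of 6 arrays (34 genes in 3 groups) 11, or 10.8%, had an array far from the others, its gap being above the 95% critical value of Dixon's test; chance gives about 1 in 20. In the mutant these were all array 1: Wnt2 at 8.90 (next 7.05), Wnt8a at 4.73 (next 4.03) and Fzd3 at 8.47 (next 9.14). In control posterior palate they were Wnt5a at 9.31 on array 3, Wnt8a at 3.71 on array 4, Fzd3 at 9.17 on array 1 and Fzd10 at 7.97 on array 5. In control anterior palate they were Wnt3a at 6.47 on array 6, Fzd4 at 6.56 and Fzd8 at 7.76 on array 5, and Fzd5 at 7.34 on array 4. The Fzd5 and Fzd4 anterior values do not enter the genotype means, though they enter the shared spread.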

How the results depend on the processing

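Called members with genotype (3 as reported) numbered 5 with the mean of all probe sets, 6 with array weights, 1 with arrays centred, 1 with quantile normalization again, 1 at an adjusted p under 0.01, 0 with 4 sets of arrays as a random block, 6 and 5 with mutant arrays 1 to 3 or 4 to 6 only, 0 and 0 with control arrays 1 to 3 or 4 to 6 only, and 1 to 4 with each array left out. Fzd5 was called in 31 of 34 alternatives, Fzd4 in 18 of 35 and Fzd9 in 17 of 35. Called members between regions (2 as reported) numbered 0 with the mean of probe sets, 1 over every probe set, 1 with genes above the median only, 1 (Wnt11) with quantile normalization, 11 with weights, 9 in the 12 arrays compared, 1 with the replicate block, 11 with both, 0 at an adjusted p under 0.01, 4 with the 4 sets as a block, 4 and 7 with mutant arrays 1 to 3 or 4 to 6, 0 and 0 with control arrays 1 to 3 or 4 to 6, and 0 to 5 with each array left out. All genes called with genotype (2449) numbered 1572 in the 12 arrays, 890 with the replicate block there, 905 at an adjusted p under 0.01, 1020 at a log2 of 0.5 or more, 588 with the 4 sets as a block, 4986 with mutant arrays 1 to 3, 135 and 1008 with control arrays 1 to 3 or 4 to 6, and 1512 to 2735 with each array left out (1592 without control posterior array 4 and 1512 without 5). The higher share of these calls was 57.5%, and 38.6% with arrays centred and 45.8% with quantile normalization. All genes called between regions (695) numbered 3356 with weights, 2151 in the 12 arrays, 3156 with the replicate block there, 251 at an adjusted p under 0.01, 398 at a log2 of 0.5 or more, 1322 with the 4 sets as a block, 2195 with mutant arrays 4 to 6, 82 and 16 with control arrays 1 to 3 or 4 to 6, and 389 to 1213 with each array left out (437 and 389 without control posterior arrays 4 and 6, 450 without 2, 442 and 458 without control anterior arrays 1 and 3, 1213 without mutant array 1). The higher share was 44.5%, and 36.7% with arrays centred and 57.9% with quantile normalization. Direction turned under at least 1 alternative for 19 of 34 members with genotype and 10 between regions, 0 of them called in that comparison as reported. It turned for Wnt2 with genotype (0.35 as reported) with weights (-0.11), mutant arrays 4 to 6 (-0.30) and without mutant array 1 (-0.032), the range over arrays left out being -0.032 to 0.50, for Wnt5a (-0.35) with weights (0.20) and mutant arrays 4 to 6 (0.54), and for Wnt11 (0.21) with mutant arrays 1 to 3 (-0.10). The turned values of the other 16 reached at most 0.24 (Ror2, -0.12 as reported), and those between regions at most 0.12 (Wnt3, -0.060 as reported). The cause of these changes was not tested, save that settings with fewer arrays leave fewer degrees of freedom.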
